A study of Mus musculus with 26 samples.

Results

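The BCL2 family decides whether a cell opens its mitochondria and dies, and 10 of its genes were followed here, library by library, in mouse mammary tumor cells that had lost the long noncoding RNA MaTAR25. The genes were taken by name, as 3 pro-survival members (Bcl2, Bcl2l1 and Mcl1) and 7 pro-death members (Bax, Bak1, Bcl2l11, Bbc3, Pmaip1, Bid and Bad), out of 45318 genes in the count files, by a rule that uses no measured value. All 10 were found in the files, and 9 passed the filter on low counts. Pmaip1 had no count in any of the 9 libraries.

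The RNA-seq cells were 4T1, a mammary carcinoma line of BALB/c mice grown in culture. Control cells carried the wild-type gene and had been given a guide RNA against Renilla luciferase. In KO1 and KO2 a pair of guide RNAs had removed the start site of MaTAR25, and the labels give the genotype as MaTAR25-/-. Poly(A) RNA was sequenced from 2 control, 3 KO1 and 4 KO2 libraries. A chromatin pulldown with MaTAR25 oligonucleotides (ChIRP-seq) was deposited as 4 peak lists. All were from 4T1 except 1 list from NDL (MMTV-Neu-NDL) mammary tumor cells, which carry an activated Neu gene. Each knockout group is 1 clone, so its libraries repeat that clone and not the deletion. The labels do not say whether the libraries came from separate cultures or whether the controls were 1 clone. The p-values therefore measure the spread between these libraries, which may be partly technical. Where both clones are pooled against control, that spread also holds the difference between them. Pairs of libraries correlated, on log levels of the genes tested, at 0.991 in control, 0.98 to 0.985 in KO1 and 0.938 to 0.97 in KO2. Pairs from different groups correlated at 0.925 to 0.954, a range that overlaps that of KO2.

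The family works at the outer membrane of the mitochondrion. BAX and BAK, the effectors, assemble into pores that let cytochrome c out and set off the caspases. BCL2, BCL-XL and MCL1 hold the effectors back, and the BH3-only proteins, which relay damage and starvation signals, bind the guardians in their groove or activate the effectors directly. In mammary tumors MCL1 and BCL-XL are known as guardians that cells lean on, and many cancer drugs act through BH3-only genes.

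Libraries held from 25367211 to 61110585 counts in genes. MaTAR25 itself, listed as 1200007C13Rik, was at 0.768 and 0.915 CPM (counts scaled to a common library size with TMM factors) in control. KO1 libraries ranged from 0 to 0.232 CPM and KO2 libraries from 0.0421 to 0.307 CPM, below both controls without exception, and its log2 fold change in all KO libraries against control was -2.63 ± 0.82 (SE, edgeR quasi-likelihood test, adjusted p = 0.0561). Of 8 epithelial and mammary tumor markers, 7 averaged at least 1 CPM, while Krt5 was at 0, and their summed level was 3725 to 3911 CPM in control, 5063 to 7337 CPM in KO1 and 2197 to 4541 CPM in KO2. Their part in the members' differences was not tested. The summed level of 6 leukocyte markers stayed at or below 1.02 CPM, with Adgre1 at 0, and that of 4 endothelial markers at or below 1.68 CPM. The 6 fibroblast and adipocyte markers summed to between 11.8 and 47.6 CPM, nearly all from Pdgfra and Col1a1, with Dcn at 0. In bulk libraries, fewer cells of a type and less RNA per cell cannot be told apart.

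With adjusted p below 0.1 as the threshold, 3 of the 9 members tested were called in KO cells against control. Bax was the 1 called higher, and Bbc3 and Mcl1 were the 2 called lower, Mcl1 by less. The call of Mcl1 was lost under 8 of 16 alternative settings. Over all 15023 genes tested, 11.9% were called higher and 10.7% lower, so calls were common outside the family too. The median log2 fold change was 0.01 over the 9 members and 0.06 over all genes tested. Libraries of KO and control did not overlap for 4 of the 9 members (Bbc3, Bax, Mcl1 and Bad), where 34.4% of all genes did not overlap.

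**Figure D1:**
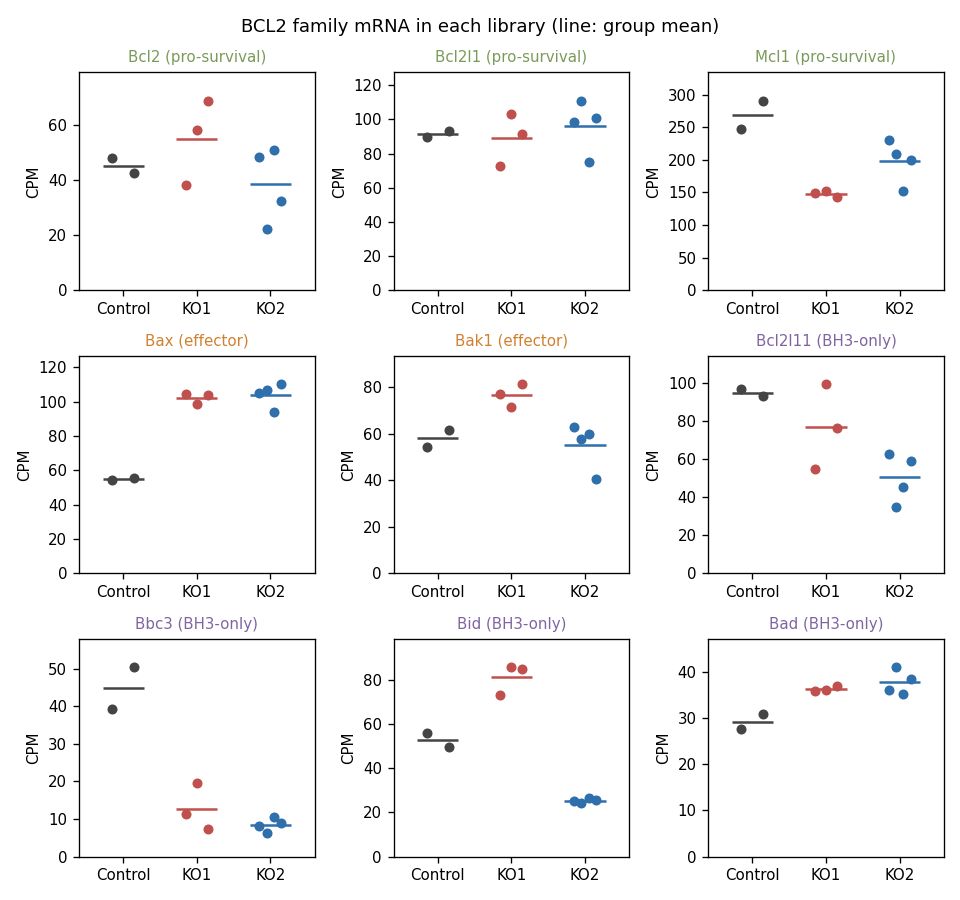
Level of each of the 9 detected members in every library, in CPM on axes that start at 0, with points for libraries and a line for the group mean. All 7 KO libraries lie above both controls for Bax and below both for Bbc3 and Mcl1, and for Bid the KO1 libraries lie above the controls and the KO2 libraries below them.

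Taking each clone on its own against the same 2 control libraries, 4 members were called in KO1 and 5 in KO2. In KO1, Bax and Bid were higher and Mcl1 and Bbc3 lower, against 15.9% of all genes called higher and 15.7% lower. In KO2, Bax was higher and Mcl1, Bcl2l11, Bbc3 and Bid were lower, against 16.5% of all genes called higher and 15.0% lower. Between the clones, Bid and Bak1 were higher in KO1, where 9.43% of all genes were called higher in KO1 and 10.2% lower. This contrast takes no control level, but the control libraries entered the same fit and its shared estimate of spread. The medians over the members were 0.28 in KO1, -0.23 in KO2 and 0.47 for KO1 against KO2 on the log2 scale, and those over all genes were 0.02, 0.03 and -0.02. Because KO1 and KO2 share their controls, their values are given side by side and are not independent of each other.

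**Figure D2:**
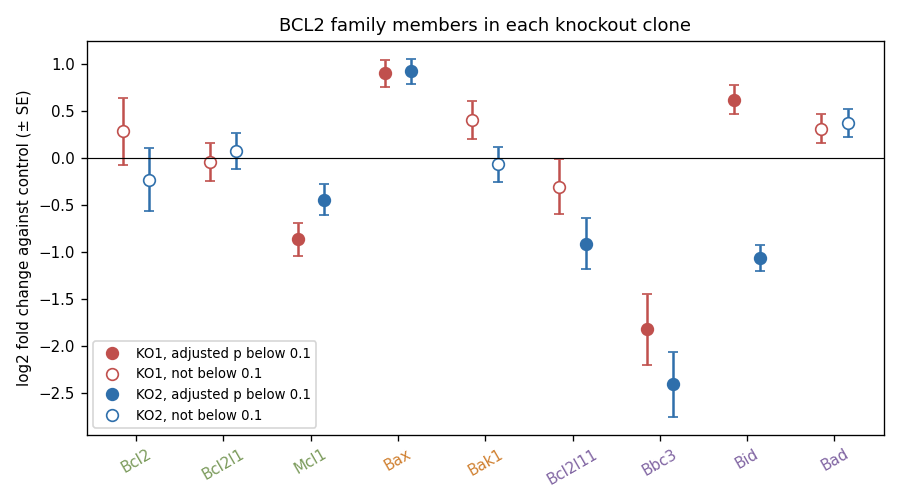
The log2 fold change of 9 members in KO1 (red) and KO2 (blue) against control, with bars of 1 SE from edgeR, filled where the adjusted p was below 0.1. Bax stands near 0.90 in KO1 and 0.92 in KO2, Bbc3 is the lowest point of each clone, and Bid is at 0.62 in KO1 and -1.06 in KO2.

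Among the guardians, Mcl1 was the 1 member that fell. Mcl1 (ENSMUSG00000038612, chr3:95658788-95663176, plus strand, GRCm38) encodes a short-lived protein that restrains BAK and binds BH3-only proteins. Control libraries held 247 and 291 CPM, KO1 libraries 149, 152 and 142 CPM, and KO2 libraries 229.8, 209.6, 153 and 200.2 CPM. KO1 libraries lay close together and far under the controls, whereas 3 of the 4 KO2 libraries came nearer to the lower control. On the log2 scale the change was -0.61 ± 0.20 (SE, adjusted p = 0.0718, edgeR) over both clones, -0.87 ± 0.18 for KO1 alone (adjusted p = 0.00938) and -0.44 ± 0.17 for KO2 alone (adjusted p = 0.0891). The call over both clones was lost without control replicate 1 (adjusted p = 0.248) or 2 (0.439), and also without any KO1 library or KO2 replicate 3, where it rounded to 0.10 or 0.11. In KO2 it was lost under 11 of 16 alternatives, among them DESeq2 (adjusted p = 0.105) and leaving out control replicate 1 (0.206), control replicate 2 (0.455), any KO1 library or KO2 replicate 4 (0.118 to 0.125), and in KO1 without control replicate 2 alone (0.103). KO1 libraries were all below KO2 libraries, with a log2 difference of -0.42 ± 0.15 that did not pass the threshold (adjusted p = 0.1004).

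Bcl2 (ENSMUSG00000057329, chr1:106538178-106714274, minus strand), the founding member of the family, did not pass the test in any comparison. Its level was 47.8 and 42.3 CPM in control, 38.0, 57.9 and 68.7 CPM in KO1, and 48.3, 22.2, 50.7 and 32.2 CPM in KO2. Libraries of each clone lay on both sides of the controls, and KO2 replicate 2 had the lowest value of the 9. KO1 differed from control by 0.28 ± 0.36 on the log2 scale (SE, adjusted p = 0.602, edgeR) and KO2 by -0.23 ± 0.33 (adjusted p = 0.646), so a change of this size was not detectable with these libraries.

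Bcl2l1 (ENSMUSG00000007659, chr2:152780668-152831728, minus strand), which encodes BCL-XL, was at 89.7 and 93.4 CPM in control. It was at 73.0, 103 and 91.4 CPM in KO1 and at 98.5, 111, 75.0 and 101 CPM in KO2. Groups overlapped in every comparison, with log2 fold changes of -0.04 ± 0.20 for KO1 (SE, adjusted p = 0.903, edgeR) and 0.07 ± 0.19 for KO2 (adjusted p = 0.817).

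Both clones carried about the same excess of Bax. Bax (ENSMUSG00000003873, chr7:45461697-45466898, minus strand) encodes the effector that moves from the cytosol into the mitochondrial membrane, and it is a classical target of p53. Its level was 54.3 and 55.5 CPM in control, 105, 98.7 and 104 CPM in KO1, and 105, 107, 93.6 and 110.2 CPM in KO2. Every KO library lay well above both controls, and the clones covered the same range. Bax rose by 0.90 ± 0.14 on the log2 scale for KO1 (SE, adjusted p = 0.00313, edgeR), a 1.86-fold rise, and by 0.92 ± 0.14 for KO2 (adjusted p = 0.00248), a 1.89-fold rise. KO1 against KO2 gave -0.02 ± 0.11 on the log2 scale (adjusted p = 0.916). The call against control held under all 16 alternatives run in each clone. Of the exon bases of Bax, 12.2% lie in Gm45808, a transcript on the same strand that the count files do not list.

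Bak1 (ENSMUSG00000057789, chr17:27019810-27029009, minus strand), the effector that sits in the mitochondrial membrane from the start, differed between the clones. It was at 54.2 and 61.7 CPM in control, at 77.0, 71.4 and 81.3 CPM in KO1, and at 62.9, 57.7, 59.9 and 40.7 CPM in KO2. All KO1 libraries were above all other libraries, and KO2 overlapped the controls. The log2 difference of KO1 against KO2 was 0.47 ± 0.17 (SE, adjusted p = 0.0958, edgeR), while KO1 against control gave 0.40 ± 0.20 (adjusted p = 0.178) and KO2 against control -0.07 ± 0.19 (adjusted p = 0.824). The difference between the clones missed the threshold under 12 of 16 alternatives, among them leaving out either control, any KO1 library, or KO2 replicate 2 or 4 (adjusted p from 0.105 to 0.231). Of the exon bases of Bak1, 18.2% overlap Ggnbp1 on the opposite strand, and since the library kit does not mark strand, reads there cannot be told apart.

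Bbc3 changed more than any other member tested and was 4.36-fold lower in KO cells. Bbc3 (ENSMUSG00000002083, chr7:16308393-16318205, plus strand) encodes PUMA, a BH3-only protein that binds every guardian and is induced by p53, by FOXO factors and by ER stress. Its level was 39.4 and 50.4 CPM in control, 11.2, 19.5 and 7.39 CPM in KO1, and 8.17, 6.36, 10.5 and 8.89 CPM in KO2. Even the highest KO library, KO1 replicate 2, lay far below the lower control. KO1 stood at -1.82 ± 0.37 against control on the log2 scale (SE, adjusted p = 0.00937, edgeR) and KO2 at -2.40 ± 0.35 (adjusted p = 0.00235), or 3.53-fold and 5.28-fold lower. Over both clones it was -2.12 ± 0.34 (adjusted p = 0.00432), and the call held under all 16 alternatives in each of these comparisons. Clones did not differ past the threshold (KO1 against KO2, 0.58 ± 0.32, adjusted p = 0.257).

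Bbc3 and Bax changed the same way in both clones, one down and the other up, so the 250 bases before their starts are shown from RefSeq (GRCm38.p6), each read 5′ to 3′ on its gene's own strand. Bbc3 has 3 start windows in that table, and the one with a FOXO motif (chr7:16310011-16310260) is printed with the motif in capitals. Bax has 1 window (chr7:45466899-45467148), with a p53 half-site in capitals.
Bbc3: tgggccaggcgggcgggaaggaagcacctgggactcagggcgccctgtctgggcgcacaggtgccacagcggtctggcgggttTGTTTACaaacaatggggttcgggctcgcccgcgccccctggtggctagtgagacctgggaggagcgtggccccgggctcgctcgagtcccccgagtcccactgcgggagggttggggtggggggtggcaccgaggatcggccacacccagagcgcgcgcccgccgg
Bax: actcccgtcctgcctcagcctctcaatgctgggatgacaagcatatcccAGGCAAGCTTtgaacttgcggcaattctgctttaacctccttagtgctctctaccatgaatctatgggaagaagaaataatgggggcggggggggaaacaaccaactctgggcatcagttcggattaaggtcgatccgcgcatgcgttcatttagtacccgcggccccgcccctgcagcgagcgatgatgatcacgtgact

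Over windows that reach from 250 bases before to 50 after a start, 9 of the 10 members matched the RefSeq table with 15 windows, and 5 motifs were searched on both strands. The FOXO motif GTAAACA was found in Bbc3 (on the opposite strand, as TGTTTAC) and in Bcl2l11, and in 3.65% of all 32851 windows. The p53 half-site was found in Bax alone, at 1 place that fits on both strands, and in 8.36% of all windows. The ATF4 composite motif TGATGNAA was in no member window and in 3.97% of all windows. The E2F motif TTTCGCGC was in a Bcl2l1 window and in 0.323% of all windows. The GC box GGGCGG was in windows of Bcl2, Mcl1, Bax, Bcl2l11, Bbc3, Bid and Bad, and in 35.7% of all windows. Members are listed here by gene, whereas these shares are by window. By gene, the GC box was in 10324 of 27025, the FOXO motif in 1095 and the p53 half-site in 2582. The ATF4 motif was in 1219 of these genes and the E2F motif in 101. No motif's letters hold those of another. A match only describes these letters, and binding of a factor was not measured.

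Bid went opposite ways in the 2 clones. Bid (ENSMUSG00000004446, chr6:120891930-120916853, minus strand) encodes the BH3-only protein that caspase-8 cuts, which carries the signal of death receptors to the mitochondrion. It was at 56.1 and 49.6 CPM in control, at 73.1, 85.7 and 84.7 CPM in KO1, and at 25.0, 24.2, 26.5 and 25.7 CPM in KO2. No group overlapped another, and the 4 KO2 libraries agreed within a few CPM. The log2 difference of KO1 against KO2 was 1.68 ± 0.13 (SE, adjusted p = 0.000449, edgeR), a 3.20-fold difference that held under all 16 alternatives. Against control it was 0.62 ± 0.15 for KO1 (adjusted p = 0.0195) and -1.06 ± 0.14 for KO2 (adjusted p = 0.00169). The rise in KO1 was not called without control replicate 1 (adjusted p = 0.105) or without control replicate 2 (0.180), and the fall in KO2 was called under all 16 alternatives. Over both clones together these changes cancelled, at -0.10 ± 0.56 (adjusted p = 0.925). Of the exon bases of Bid, 17.7% overlap Bcl2l13 on the opposite strand, and reads there cannot be told apart. Bcl2l13 itself, a distant relative, stood at -0.28 ± 0.15 for KO1 (SE, adjusted p = 0.203, edgeR) and at -0.56 ± 0.14 for KO2 (adjusted p = 0.0209) on the log2 scale. Libraries of KO1 and KO2 did not overlap for 3 of 9 members, Mcl1, Bak1 and Bid, against 24.5% of all genes.

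Bcl2l11 (ENSMUSG00000027381, chr2:128126038-128162547, plus strand), which encodes the BH3-only protein BIM, fell in KO2. Its level was 96.8 and 92.9 CPM in control, 54.9, 99.5 and 76.4 CPM in KO1, and 62.7, 35.0, 45.3 and 58.8 CPM in KO2. Every KO2 library was below both controls, whereas KO1 replicate 2 was above them. On the log2 scale the change was -0.91 ± 0.27 in KO2 (SE, adjusted p = 0.0373, edgeR) and -0.30 ± 0.29 in KO1 (adjusted p = 0.478), and the difference between the clones, 0.61 ± 0.24, did not pass the threshold (adjusted p = 0.131). Without control replicate 1 or 2 the adjusted p in KO2 was 0.206 or 0.173.

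Bad (ENSMUSG00000024959, chr19:6941861-6951899, plus strand), a BH3-only protein that survival kinases such as AKT keep phosphorylated and inactive, was at 27.6 and 30.8 CPM in control. It was at 35.9, 36.0 and 36.9 CPM in KO1 and at 36.1, 41.0, 35.2 and 38.4 CPM in KO2. All 7 KO libraries were above both controls by a small step. Against control the log2 difference was 0.31 ± 0.16 for KO1 (SE, adjusted p = 0.180, edgeR) and 0.37 ± 0.15 for KO2 (adjusted p = 0.108), so neither was called. Bad was called higher in KO2 by DESeq2 (adjusted p = 0.0751) and without KO2 replicate 3 (0.0865), in KO1 with only KO1 and control in the fit (0.0765), and over both clones by DESeq2 (0.0571). Of the exon bases of Bad, 20.5% overlap Gpr137 on the opposite strand.

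Pmaip1, which encodes NOXA, the BH3-only partner of MCL1, had 0 counts in every library. A count of 0 allows up to 3 counts, or between 0.0478 and 0.126 CPM depending on the library, and this limit covers counting error only. Whether the gene annotation used for counting covers the expressed transcripts of Pmaip1 was not checked, so the 0 is the listed count and is not shown to be absence of its mRNA. Its change could not be tested.

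Per kilobase of exon, Mcl1 led in control cells and Bax led in both clones. The length was that of all annotated exons of a gene joined, not of the transcript expressed. The order between genes therefore depends on the annotation. The control order ran from Mcl1 at 78.7 ± 9.03 CPM per kb (SD, n = 2) through Bax at 34.8 ± 0.52, Bak1 at 24.1 ± 2.18, Bbc3 at 21.1 ± 3.67, Bcl2l1 at 20.0 ± 0.57, Bid at 14.9 ± 1.29, Bcl2l11 at 11.8 ± 0.34, Bad at 11.4 ± 0.89 and Bcl2 at 4.92 ± 0.43 to Pmaip1, listed at 0. Libraries of the neighbours Bak1 and Bbc3, Bbc3 and Bcl2l1, and Bcl2l11 and Bad overlapped, and those of the other neighbours did not. In KO1, Bax averaged 64.9 ± 1.99 CPM per kb (SD, n = 3) and Mcl1 43.2 ± 1.40, without overlap. In KO2, Bax averaged 65.9 ± 4.57 CPM per kb (SD, n = 4) and Mcl1 57.9 ± 9.58, and their libraries overlapped. Bbc3, which stood above Bcl2l1 in control, had the lowest mean of the 9 detected members in both clones, at 5.99 ± 2.92 and 3.99 ± 0.81 CPM per kb, where it overlapped Bcl2.

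Summed by role on the same scale, the 10 members changed their make-up more than their total. That total was 211 and 232 CPM per kb in control, 209 to 225 in KO1 and 183 to 219.5 in KO2. Pmaip1 entered these sums at its listed count of 0, and relatives outside the 10 members, such as the pro-survival Bcl2l2, were left out. Pro-survival mRNA summed to 97.1 and 110.1 CPM per kb in control, 63.5, 73.2 and 69.1 in KO1, and 94.0, 87.9, 66.5 and 84.0 in KO2. Effector mRNA summed to 57.0 and 60.8 CPM per kb in control, 98.3, 92.3 and 99.6 in KO1, and 92.7, 91.8, 84.3 and 86.8 in KO2. All KO libraries were below both controls for the guardians and above both for the effectors. BH3-only mRNA summed to 57.2 and 61.3 CPM per kb in control, to between 46.7 and 59.8 in KO1, and to between 30.2 and 33.7 in KO2, so the clones parted here.

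The log2 ratio of pro-death to pro-survival mRNA stood at 0.23 and 0.15 in control, at 1.19, 1.06 and 1.13 in KO1, and at 0.42, 0.47, 0.80 and 0.52 in KO2. Every KO library was above both controls, and every KO1 library was above every KO2 library. No p was computed for this ratio, which adds up the members described above. Without length scaling the ratio was -0.23 and -0.32 in control, between 0.37 and 0.46 in KO1, and between -0.34 and -0.04 in KO2, so that the KO2 libraries then overlapped the controls.

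The pairs gave different pictures. The log2 ratio of Bax to Bcl2 averaged 2.83 ± 0.15 (SD, n = 2) in control, 3.48 ± 0.46 (n = 3) in KO1 and 4.05 ± 0.63 (n = 4) in KO2, and its lowest KO value of 3.13 was above the highest control value of 2.93. For Bbc3 to Mcl1 the ratio moved the other way, from -1.90 ± 0.09 in control to -2.96 ± 0.66 in KO1 and -3.87 ± 0.51 in KO2, with no KO library reaching the controls.

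**Figure D3:**
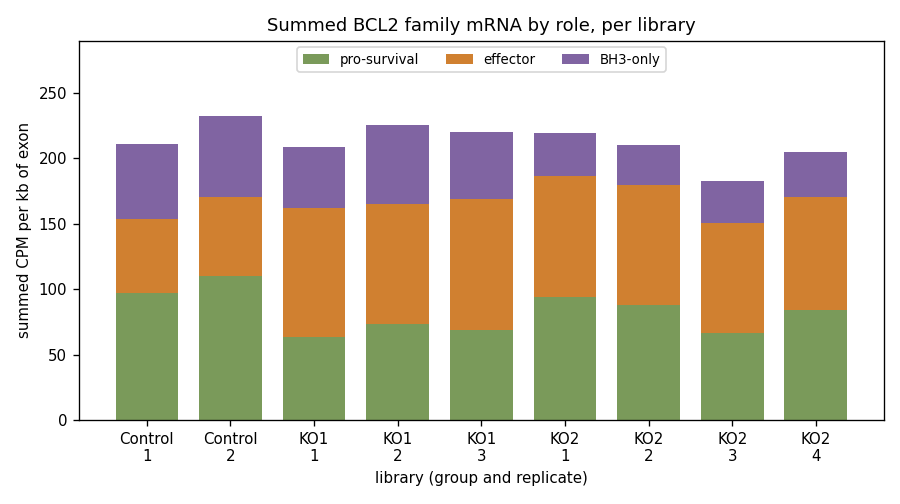
Stacked sums of the length-scaled levels (CPM per kb of exon) of the pro-survival, effector and BH3-only members in each of the 9 libraries. The effector share is wider in all 7 KO libraries than in the controls, and the BH3-only share is narrowest in the 4 KO2 libraries.

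Around the members, 69 genes of the same pathway were followed in 8 lists, of which 63 passed the filter on low counts. In KO1, 12 were called higher and 10 lower, and in KO2, 11 were called higher and 12 lower, near the shares of all genes given above. Over these genes the log2 fold change had a median of 0.01 for KO1 and 0.05 for KO2, beside 0.02 and 0.03 over all genes. Called in both clones in the same direction were 17 of the 63 genes, 9 higher and 8 lower. Over all genes tested, 9.91% were called higher in both clones and 8.45% lower in both, against the same 2 controls. Of the 17, the 12 with the largest change are named here together with Trp53.

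Relatives of the members moved in both directions. Hrk, a BH3-only gene related to Bbc3 in function and best known from neurons, had 86 and 26 counts in the controls and 2 counts in all 7 KO libraries together. The ratio of its pooled rate in KO to that in control was 0.00495 (95% exact interval 0.000592 to 0.0183, counting error only), with 1 count in each clone. Of the 5 other BH3-only and BNIP3 genes, Hrk was the 1 called in KO1, and Bmf was also lower in KO2. Bcl2l2, the guardian BCL-W and the 1 gene of 5 pro-survival relatives that passed the filter, was at 73.5 and 77.9 CPM in control, at 26.9, 35.6 and 31.9 CPM in KO1, and at 31.6, 45.1, 36.4 and 39.5 CPM in KO2. It was lower in every KO library, by -1.27 ± 0.19 on the log2 scale for KO1 (SE, adjusted p = 0.00274, edgeR) and -0.99 ± 0.18 for KO2 (adjusted p = 0.00562). Among 5 other multidomain relatives, Bok was called higher in both clones, and Bcl2l13 lower in KO2. Beside these short lists, 15.9% of all genes were called higher and 15.7% lower in KO1, and 16.5% and 15.0% in KO2.

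Downstream of the pore, 4 of the 11 genes of the apoptosome and caspase list were called higher in KO1 and 6 in KO2, and none was called lower. Of all genes, 15.9% were called higher and 15.7% lower in KO1, and 16.5% and 15.0% in KO2. The list had a median of 0.45 for KO1 and 0.83 for KO2 on the log2 scale, where all genes had 0.02 and 0.03, and the list itself was not tested. Casp6, an executioner caspase, rose by 0.98 ± 0.31 for KO1 (SE, adjusted p = 0.0489, edgeR) and 1.66 ± 0.31 for KO2 (adjusted p = 0.00646), and Aifm1, a mitochondrial oxidoreductase that also acts in caspase-independent death, rose by 1.60 ± 0.17 (adjusted p = 0.000881) and 0.94 ± 0.16 (adjusted p = 0.00483). Cycs and Htra2, released through the pore, were the other 2 called in both clones. Of 5 inhibitors of apoptosis, Birc5 (survivin, which also serves in cell division) was the 1 called, from 74.2 and 74.5 CPM in control to between 196 and 235 CPM in KO1 and between 124 and 168 CPM in KO2. In the death receptor list of 8 genes, 2 were called in KO1 (Fadd higher, Cflar lower) and 1 in KO2 (Fas lower).

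Trp53 and some of its known targets were lower, but most of the list was not called. Of 13 genes tested in that list, 4 were lower in each clone and none higher, with medians of 0.04 in KO1 and -0.01 in KO2. Over all genes, 15.9% were called higher and 15.7% lower in KO1, and 16.5% and 15.0% in KO2. Trp53 was at 84.9 and 90.7 CPM in control, at 50.7, 44.9 and 48.1 CPM in KO1, and at 54.2, 48.6, 51.2 and 56.1 CPM in KO2. It fell by 0.87 ± 0.14 on the log2 scale for KO1 (SE, adjusted p = 0.00370, edgeR) and by 0.74 ± 0.13 for KO2 (adjusted p = 0.00562). Sesn2, a stress sensor that restrains mTORC1, changed by -1.80 ± 0.39 (adjusted p = 0.0118) and -3.42 ± 0.37 (adjusted p = 0.000813), and Trp53inp1, a nuclear cofactor of p53, by -1.71 ± 0.61 (adjusted p = 0.0712) and -2.27 ± 0.56 (adjusted p = 0.0195). The fourth was Phlda3 in KO1 and Mdm4 in KO2. Cdkn1a, a cell cycle inhibitor and standard readout of p53, stood at -1.20 ± 0.75 for KO1 (adjusted p = 0.271) and 0.46 ± 0.73 for KO2 (adjusted p = 0.681) and was not called, nor was Mdm2. The activity of p53 protein in these cells was not measured.

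Of 15 upstream regulators of the members, 5 were higher and 3 lower in KO1, and 3 were higher and 3 lower in KO2, with medians of -0.01 and 0.05 on the log2 scale. Among all genes, 15.9% were called higher and 15.7% lower in KO1, and 16.5% and 15.0% in KO2. Ddit3, which encodes the ER stress factor CHOP, fell from 152 and 233 CPM in control to 25.1, 43.6 and 26.4 CPM in KO1 and to 11.4, 24.6, 15.1 and 13.7 CPM in KO2, with log2 fold changes of -2.61 ± 0.36 (SE, adjusted p = 0.00174, edgeR) and -3.58 ± 0.33 (adjusted p = 0.000513). Trib3, a pseudokinase induced by CHOP, fell from 474 and 553 CPM to between 60.9 and 139 CPM in KO1 and between 7.92 and 14.4 CPM in KO2, or by -2.56 ± 0.39 (adjusted p = 0.00287) and -5.52 ± 0.39 (adjusted p = 0.000295) on the log2 scale. No KO library of either gene came near the controls. Foxo1, a transcription factor of Bbc3 and Bcl2l11, fell by 1.51 ± 0.26 for KO1 (adjusted p = 0.00465) and by 1.51 ± 0.24 for KO2 (adjusted p = 0.00362) on the log2 scale. Higher in both clones were Pim2, a kinase that phosphorylates BAD, by 2.0 ± 0.31 (adjusted p = 0.00315) and 1.55 ± 0.30 (adjusted p = 0.00717), and Usp9x, a deubiquitinase that stabilises MCL1 protein, by 1.32 ± 0.17 (adjusted p = 0.00133) and 0.94 ± 0.16 (adjusted p = 0.00470). Akt1, which encodes a survival kinase that phosphorylates BAD, was the third, by 0.79 ± 0.21 (adjusted p = 0.0235) and 1.30 ± 0.20 (adjusted p = 0.00334).

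**Figure D4:**
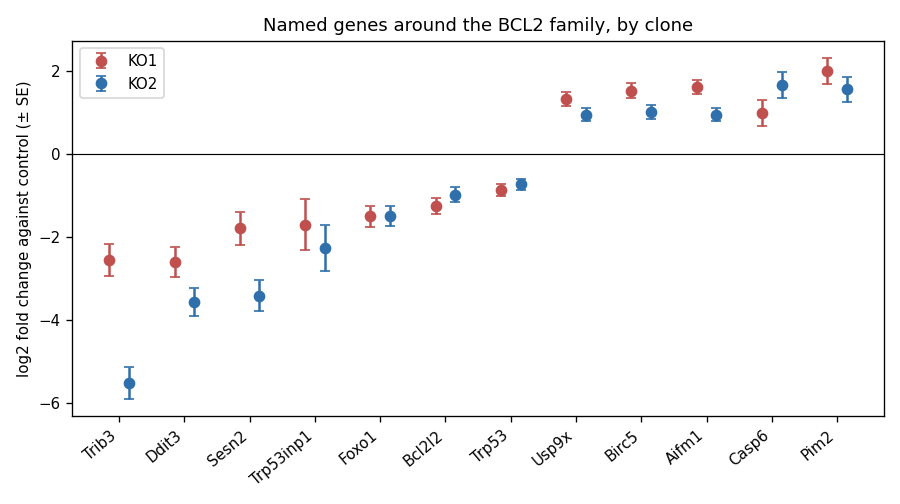
The log2 fold change against control (± 1 SE, edgeR) of 12 named genes around the family in KO1 (red) and KO2 (blue), ordered by the change over both clones. The 7 genes on the left are lower and the 5 on the right higher in each clone, and Trib3 shows the widest gap between clones. Hrk is left out because its KO libraries held 2 counts.

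The genes whose pattern was most like that of Bbc3 were taken over the 9 libraries by Pearson correlation of log2(CPM + 1), among 12027 other tested genes that averaged 1 CPM or more. They were Txnip (r = 0.97), a brake on thioredoxin, Arl14ep (0.97), Ccdc28b (0.97), the kinase gene Tlk2 (0.97) and Soat2 (0.97), which encodes a cholesterol-esterifying enzyme. Txnip averaged 236 CPM in control, 38.1 CPM in KO1 and 24.4 CPM in KO2, and Soat2 averaged 22.6, 1.11 and 0.265 CPM. The libraries fall into 3 groups and share those groups' differences, so these values describe the order of the groups as much as that of the libraries.

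In the ChIRP-seq lists, MaTAR25 oligonucleotides were used as separate odd-numbered and even-numbered pools and as a total pool in 4T1 cells, and as a total pool in NDL cells, a mouse mammary tumor line driven by an activated Neu gene. Each list gives 1 score per peak for 2 or 3 replicate libraries together, so the scores carry no error here. Counting a peak inside a gene or up to 5 kb before its start, 7 of 10 members had one in the 4T1 total list, 3 in the odd list, 5 in the even list and 8 in the NDL list. Of 14949 tested genes with a position, 59.4%, 51.7%, 52.4% and 58.2% had one in these lists, in the same order. Bak1 had none in any list, and Bbc3 and Bcl2l11 had 1 each, in the NDL list only. The even list holds 0 peaks on chromosome 3, the chromosome of Mcl1, and 8877 on chromosome 2, where the total list holds 5666, so its entries for Mcl1, Bcl2l1 and Bcl2l11 are uncertain.

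Bcl2, the longest of the genes at 176097 bases, held 8 peaks in the total list, 6 in the odd, 10 in the even and 6 in the NDL list. Its strongest, in intron 1 with its centre 9349 bases after the gene start, was at chr1:106704543-106705307 in the total list, with a score of 384.2 and rank 1765 of 76806. The same region had a score of 223.8 in the even list (rank 2565 of 64607) and 353.9 in the NDL list (rank 1604 of 70329), and none in the odd list. Bid had a peak at chr6:120915407-120916217, about 1 kb after its start, with scores of 105.6 in the total, 149.2 in the even and 145.7 in the NDL list, and also none in the odd list. Bcl2l1 had the highest score of any member in the odd list, 400.0 (rank 3076 of 61311) at chr2:152804851-152805475 in an intron, where the total list gave 56.1, the NDL list 64.1 and the even list no peak. Bax had a peak of 45.9, 40.5 and 68.0 in the total, even and NDL lists near an annotated transcript end.

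Because the odd and even pools disagreed at Bcl2 and Bcl2l1, 200 bases of each region are shown on the plus strand of GRCm38, with the longest exact match to a MaTAR25 oligonucleotide in capitals where it reached 10 bases. In the Bcl2 peak of the total list (chr1:106704825-106705024 shown) none of the 14 oligonucleotides matched 10 bases or more. In the Bcl2l1 peak of the odd list (chr2:152804946-152805145 shown), 13 bases matched the reverse complement of oligonucleotide 7, a member of the odd pool, which is given with those bases in capitals.
Bcl2: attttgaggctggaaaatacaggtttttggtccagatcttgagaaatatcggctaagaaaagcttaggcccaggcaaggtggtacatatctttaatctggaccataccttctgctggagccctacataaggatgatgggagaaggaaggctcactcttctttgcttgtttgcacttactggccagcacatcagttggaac
Bcl2l1: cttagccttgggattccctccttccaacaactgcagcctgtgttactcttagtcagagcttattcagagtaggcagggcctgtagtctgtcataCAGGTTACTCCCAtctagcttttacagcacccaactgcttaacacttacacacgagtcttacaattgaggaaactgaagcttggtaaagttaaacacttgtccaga
Oligonucleotide 7: tTGGGAGTAACCTGgggaag

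Among all peaks, 6.69% of the odd list and 1.05% of the even list held at least 13 bases of an odd-numbered oligonucleotide on either strand, beside 4.06% of the total list. Whether the oligonucleotide bound this DNA directly was not tested. Bbc3, Bax and Mcl1, the members called in the same direction in both clones, had highest scores of 81.9 (NDL list), 68.0 (NDL list) and 49.7 (odd list). In the 4T1 lists Bbc3 had no peak, and Bax reached 45.9 in the total list.

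**Figure D5:**
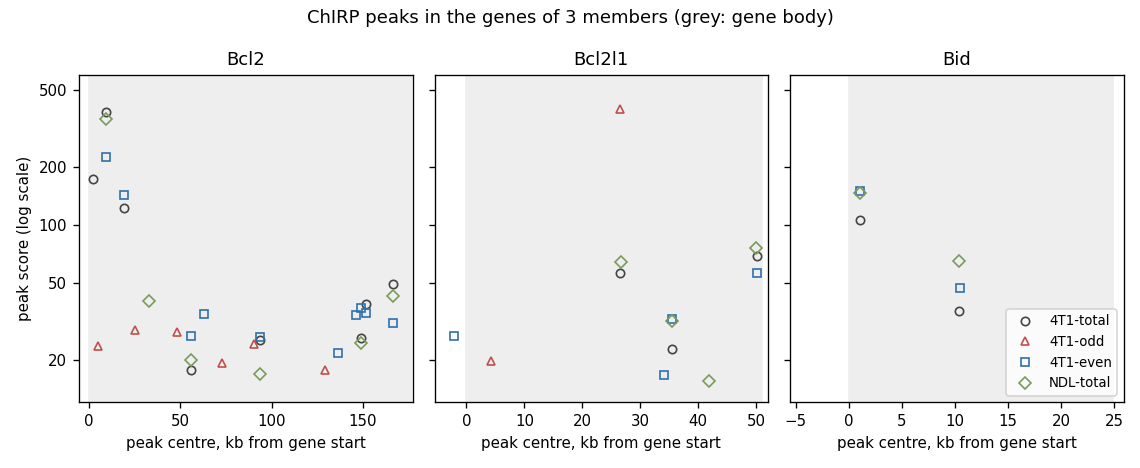
Score of each ChIRP-seq peak (log axis) against the distance of its centre from the gene start in kb, for Bcl2, Bcl2l1 and Bid, with 1 symbol per list and the gene body in grey. The peaks above 200 are the intron 1 region of Bcl2 in the total, even and NDL lists and the odd-list peak of Bcl2l1 at 400.0.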

How the data were processed

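RNA-seq reads were mapped by the authors to GRCm38 with STAR and counted per gene with HTSeq. The deposited values are raw counts per gene, 1 table per library. In KO2 replicate 2 every gene stands 3 times with the same count and was taken once. Entries that name no gene (reads outside genes, ambiguous or mapped to several places, 33.9% to 37.0% of all counts) were left out of library sizes. Libraries held 25367211 to 61110585 counts. Counts were tested with edgeR 4.0.16 (TMM, filterByExpr, quasi-likelihood test, R 4.3.3), with Benjamini-Hochberg adjustment over 15023 genes and a threshold of 0.1, the level of the study's methods. KO against control was fitted with 2 levels, and the clones with 3 groups. The scripts were tested on simulated data. The alternatives were DESeq2 1.42.0, RLE size factors, other filters, a threshold of 0.05, the replicate number as a block, other sample sets and leaving out each library. Exon lengths, positions and overlaps were taken from GENCODE vM21, whereas the authors counted on an older release.

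The ChIRP-seq files hold the deposited HOMER peak score, which the authors obtained with HOMER's script for differential peaks with replicates, against a Ppib pulldown (at least 50-fold) after mapping with Bowtie2, and how it was scaled or replicates were combined was not stated in the sources read. Depth behind the scores is unknown. The members, pathway lists, motifs and the rule for named genes (all members, MaTAR25, the 12 pathway genes with the largest change among those called in both clones, Trp53, and the 5 genes most like the called member with the largest change) were chosen with earlier results of these data known. Genes named beyond that rule were chosen after their values were seen. Protein sequences were not used here.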

Additional observations from a re-analysis of the deposited data

Results flagged for a closer look

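The log2 difference between KO1 and KO2 was tested for 9 members, and 2 of them were called, both higher in KO1. Over all genes tested, 9.43% were called higher in KO1 and 10.2% lower. For Bid the difference was 1.68 (SE 0.13, edgeR adjusted p = 0.000449), with all 3 KO1 libraries above and all 4 KO2 libraries below both controls. For Bak1 it was 0.47 (SE 0.17, edgeR adjusted p = 0.0958), with all KO1 libraries above all KO2 libraries. The Bak1 call was lost under 12 of 16 alternatives. Each clone stands for 1 cell, so a difference between the clones and a difference between 2 cells of the parent line cannot be told apart. No library stood apart from its group by Dixon's criterion in the 12 checks that group size allowed, all in KO2.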

How the results depend on the processing

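The count of members called in KO against control was 3 and ranged from 2 to 3 when a library was left out, with 4 by DESeq2. Over all genes, 3392 of 15023 were called, 462 of 15660 without control replicate 1 and 574 of 15919 without control replicate 2. DESeq2 called 4177 of 16185 genes. In KO1 the count of members was 4, with a range of 2 (without control replicate 2) to 5, and 6 (Bad and Bak1 also higher) with only the groups compared. Of all genes, 4750 of 15023 were called there, 1764 of 15919 without control replicate 2 and 7752 of 14342 with only the groups compared. In KO2 the count of members was 5, with a range of 3 (without either control library) to 6, and 3 with the replicate number as a block. Among all genes, 4724 of 15023 were called there, and 1366 of 15660 or 1456 of 15919 without control replicate 1 or 2. The block gave 3689 of 15023 genes. KO1 against KO2 gave 2 members, with a range of 1 to 3 (1 without either control, KO1 replicate 2 or 3, or KO2 replicate 2 or 4), and 1, Bid, with no filter on low counts, at a threshold of 0.05, with the replicate block or with only the groups compared. All genes called there numbered 2944 of 15023, from 874 of 15085 to 4077 of 14828 without single libraries. With only the groups compared, 1932 of 14166 genes were called. No sign of a called fold change turned under any alternative: of 576 alternative fits of a member, 37 lost the call and 10 gained one. The cause was not tested. Same-numbered libraries did not deviate together (correlations from -0.149 to 0.0429), so they were not treated as paired. With the replicate block, Mcl1 in KO (adjusted p = 0.207, edgeR) and in KO2 (0.224), Bcl2l11 in KO2 (0.105) and Bak1 between the clones (0.210) were not called. With the replicate block, 1952 genes were called in KO against control, where the main fit called 3392.

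The pro-death to pro-survival ratio was 0.61 higher in KO on the log2 scale, from 0.54 to 0.67 without single libraries and 0.32 without length scaling. Pathway genes called in both clones numbered 17, from 11 (without control replicate 2) to 19 without single libraries. Members with a peak within 50 kb numbered 10 in the 4T1 total list, 9 in the odd list, 8 in the even list and 9 in the NDL list. The share of all genes was not computed for this wider window, so these counts say nothing particular about the members. Over all genes tested, the median log2 fold change in KO against control was 0.06, and 0.20 with DESeq2 and 0.19 with no filter.

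With 2 control libraries, every comparison against control rests on the spread of few samples, and calls of Mcl1 in KO and KO2, Bcl2l11 in KO2 and Bid in KO1 needed both. Peak scores have no replicates.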
